A study of Mus musculus with 12 samples.

Results

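The 10 goblet cell and mucus genes Muc2, Fcgbp, Zg16, Clca1, Tff3, Agr2, Spink4, Spdef, Atoh1 and Retnlb were examined in ileal and colonic mucosa of mice that lack the metal transporter Slc39a8 in intestinal epithelial cells and of control mice. They were chosen by symbol as known goblet cell genes, by a rule that used none of their values but was set with earlier results of these data known. All 10 were found among the 53715 gene entries of the table, and all 10 were among the 16558 genes that passed the filter on low counts. In both genotypes the genes divided by tissue: Muc2, Agr2 and Spdef were higher in colon, and Fcgbp, Zg16, Clca1, Tff3 and Spink4 were higher in ileum. When levels were set against epithelial genes, Clca1, and Spink4 in control mice, changed sign. Of the genes higher in ileum, only Tff3 was then still called in both genotypes. None of the 10 was called between KO and control mice.

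RNA was sequenced in 12 libraries, 3 for each combination of ileum or colon with control or KO, from 8-week-old male mice. The labels give all mice as C57BL/6J, controls as Slc39a8-fl/fl (although their titles carry the letters WT), and KO mice as Slc39a8-fl/fl:Villin-Cre, in which Cre is driven by the Villin promoter in intestinal epithelial cells. The study's methods describe its controls as a mixture of floxed mice, mice with 1 floxed allele, wild-type mice and Villin-Cre mice, so which of these a control library came from is known only from its label. The labels give no treatment. RNA of whole mucosa was primed with oligo-dT, so goblet cells were measured together with all other mucosal cells, and fewer goblet cells and less of a transcript per goblet cell cannot be told apart. Whether an ileal and a colonic library came from the same mouse is not given, and the tests reported here took the libraries as independent.

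Goblet cells are the mucus-secreting cells of the intestinal epithelium. They release the gel-forming mucin Muc2, whose disulfide-linked polymers build the mucus layer, together with proteins that bind to the mucin, cut it or protect the surface. In colon this layer is dense near the epithelium and keeps bacteria at a distance, while in the small intestine it is looser and is not attached to the cells. The transcription factor Atoh1 directs progenitors to the secretory lineages, and Spdef promotes the maturation of goblet cells.

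Library depth ranged from 16749138 to 27903083 expected counts. Levels are given as CPM, counts of a gene relative to the size of its library, where that size was scaled by TMM factors, and a gene was called at a Benjamini-Hochberg adjusted p below 0.1 in edgeR's quasi-likelihood test over all 16558 genes. Slc39a8 was measured at 5.22 to 8.39 CPM in ileal controls, 2.62 to 4.35 in ileal KO, 20.1 to 20.8 in colonic controls and 7.35 to 11.5 in colonic KO libraries. Its level did not overlap between genotypes in either tissue, although the edgeR test over both tissues gave an adjusted p of 0.382, against 1.25e-05 in DESeq2 and 0.0194 in edgeR without the pair of ileal libraries named next. Ileum control 3 and ileum KO 1 stood apart from the other ileal libraries in genes that are not goblet genes. The summed level of 7 smooth muscle genes was 34.6 and 20.6 CPM in these libraries, against 1843 to 2677 CPM in the other 4 ileal libraries and 2565 to 3997 CPM in colon. The tissue results for the goblet genes and the other lists are therefore also given without both libraries where that moved a call. As a check of the tissue, 7 of 8 Paneth cell genes, which mark crypts of the small intestine, were called lower in colon in both genotypes. The summed level of 8 pan-epithelial genes was 19182 to 23820 CPM in ileum and 9509 to 10839 CPM in colon, and all 8 were called lower in colon.

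For 5 of the 10 genes, 250 bases upstream of the RefSeq start site (GRCm38.p6) were at hand: Muc2, Fcgbp, Agr2, Spdef and Atoh1. The first 3 windows below are shown because Muc2 and Spdef had almost the same profile over the libraries while Fcgbp, also a mucus protein gene, had the opposite tissue preference. Agr2 is shown because it shared a motif with Spdef. The Muc2 window is chr7:141690090-141690339 on the plus strand, the Spdef window chr17:27728952-27729201 on the minus strand, the Fcgbp window chr7:28070986-28071235 on the plus strand, and the Agr2 window chr12:35992675-35992924 on the plus strand. Each is written 5′ to 3′ in the direction of transcription and ends at the base before the start site. Capitals mark every match, on either strand, to 3 motifs that were searched: CAGCTG, an E-box of the kind that basic helix-loop-helix factors such as Atoh1 can bind, TTTATG, of the kind that Cdx homeobox factors can bind and that stands in the Agr2 window as its reverse complement, and TATAAA, the core promoter box.
Muc2: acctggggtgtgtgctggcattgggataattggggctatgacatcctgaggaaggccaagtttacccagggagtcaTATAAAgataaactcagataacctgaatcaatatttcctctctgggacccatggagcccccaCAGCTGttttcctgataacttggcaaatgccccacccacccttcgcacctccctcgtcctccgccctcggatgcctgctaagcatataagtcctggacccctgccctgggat
Spdef: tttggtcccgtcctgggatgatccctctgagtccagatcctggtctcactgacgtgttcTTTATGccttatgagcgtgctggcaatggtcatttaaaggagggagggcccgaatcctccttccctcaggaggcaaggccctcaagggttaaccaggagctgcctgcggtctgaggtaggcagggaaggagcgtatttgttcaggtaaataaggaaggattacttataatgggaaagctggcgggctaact
Fcgbp: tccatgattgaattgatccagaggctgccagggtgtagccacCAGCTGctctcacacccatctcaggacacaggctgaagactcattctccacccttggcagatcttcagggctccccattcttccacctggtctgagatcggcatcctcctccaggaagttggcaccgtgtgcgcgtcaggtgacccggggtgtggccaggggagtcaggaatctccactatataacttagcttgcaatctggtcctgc
Agr2: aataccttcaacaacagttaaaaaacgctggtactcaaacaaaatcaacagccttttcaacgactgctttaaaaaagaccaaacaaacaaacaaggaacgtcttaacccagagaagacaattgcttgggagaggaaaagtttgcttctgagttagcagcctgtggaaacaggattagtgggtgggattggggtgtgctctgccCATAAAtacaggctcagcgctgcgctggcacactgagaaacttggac

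CAGCTG was found in the windows of Muc2, 112 bases before the start site, and of Fcgbp, 208 bases before it, so genes of opposite tissue preference shared this motif. It was present in 13.0% of all 32851 windows of this length. TTTATG was found in the windows of Spdef and Agr2, both higher in colon, at 191 and 47 bases before the start site, and in 10.8% of all windows. TATAAA was found in the Muc2 window alone among the 5, at 174 bases before the start site, and in 12.4% of all windows. Only exact matches were searched, so a window without TATAAA may still hold a variant of it nearer to the start site. Muc2 and Spdef shared none of these motifs. The Atoh1 window had no match to any of the 3.

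Muc2 (ENSMUSG00000025515.15), the gel-forming mucin itself, lies on chromosome 7 at 141690340 to 141754693 of the plus strand (GRCm38, GENCODE M21). It was measured at 1262, 1410.5 and 1673 CPM in the ileal control libraries and at 1612, 1491 and 1309.8 CPM in the ileal KO libraries. In colon it was measured at 2769, 3626 and 2305 CPM in controls and at 4477, 3487 and 3707 CPM in KO mice. Every colonic library lay above every ileal library. Muc2 was 2.0-fold higher in colon in control mice (log2 fold change 1.0, SE 0.20, n = 3 per group, edgeR adjusted p = 0.00356) and 2.64-fold higher in KO mice (1.40, SE 0.21, adjusted p = 0.000406).

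Spdef (ENSMUSG00000024215.13, chromosome 17, minus strand) encodes the ETS-family transcription factor of goblet cell maturation. In ileum it was measured at 17.2, 25.5 and 24.4 CPM in controls and at 26.0, 22.2 and 24.8 CPM in KO mice. In colon it was measured at 39.7, 54.7 and 31.1 CPM in controls and at 69.4, 57.9 and 68.9 CPM in KO mice. As for Muc2, the tissues did not overlap. Spdef was 1.87-fold higher in colon in control mice (log2 fold change 0.90, SE 0.21, edgeR adjusted p = 0.00733) and 2.69-fold higher in KO mice (1.43, SE 0.21, adjusted p = 0.000404).

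Agr2 (ENSMUSG00000020581.11, chromosome 12, plus strand) encodes a disulfide isomerase of the endoplasmic reticulum that mucin production needs. It was measured at 1062, 609 and 827 CPM in ileal controls, and at 626, 806 and 661 CPM in ileal KO libraries. The colonic libraries had 1820.2, 1513 and 1107 CPM in controls and 1308, 1459.6 and 1056 CPM in KO mice. Within each genotype the tissues did not overlap, but over all 12 libraries they just did, since the highest ileal value was above the lowest colonic one. Agr2 was 1.78-fold higher in colon in control mice (log2 fold change 0.83, SE 0.24, edgeR adjusted p = 0.0243) and 1.83-fold higher in KO mice (0.87, SE 0.24, adjusted p = 0.0194).

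Atoh1 (ENSMUSG00000073043.5, chromosome 6, plus strand), the switch to the secretory lineages, was measured at 19.8, 16.4 and 33.3 CPM in ileal controls. The other groups had 32.0, 22.0 and 26.1 CPM (ileal KO), 37.5, 32.3 and 26.7 CPM (colonic controls) and 39.1, 41.7 and 44.2 CPM (colonic KO). Colon and ileum overlapped in controls, through the library ileum control 3, and not in KO mice. The log2 fold change of colon over ileum was 0.47 in control mice (SE 0.24, edgeR adjusted p = 0.175), which was not called, and 0.64 in KO mice (SE 0.24, adjusted p = 0.0678), which was. Without ileum control 3 and ileum KO 1 both values were called, at 0.81 (adjusted p = 0.00316) in control mice and 0.80 (adjusted p = 0.00302) in KO mice. The KO call was lost when any of ileum KO 2, ileum KO 3 or the colonic KO libraries was left out.

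**Figure D1:**
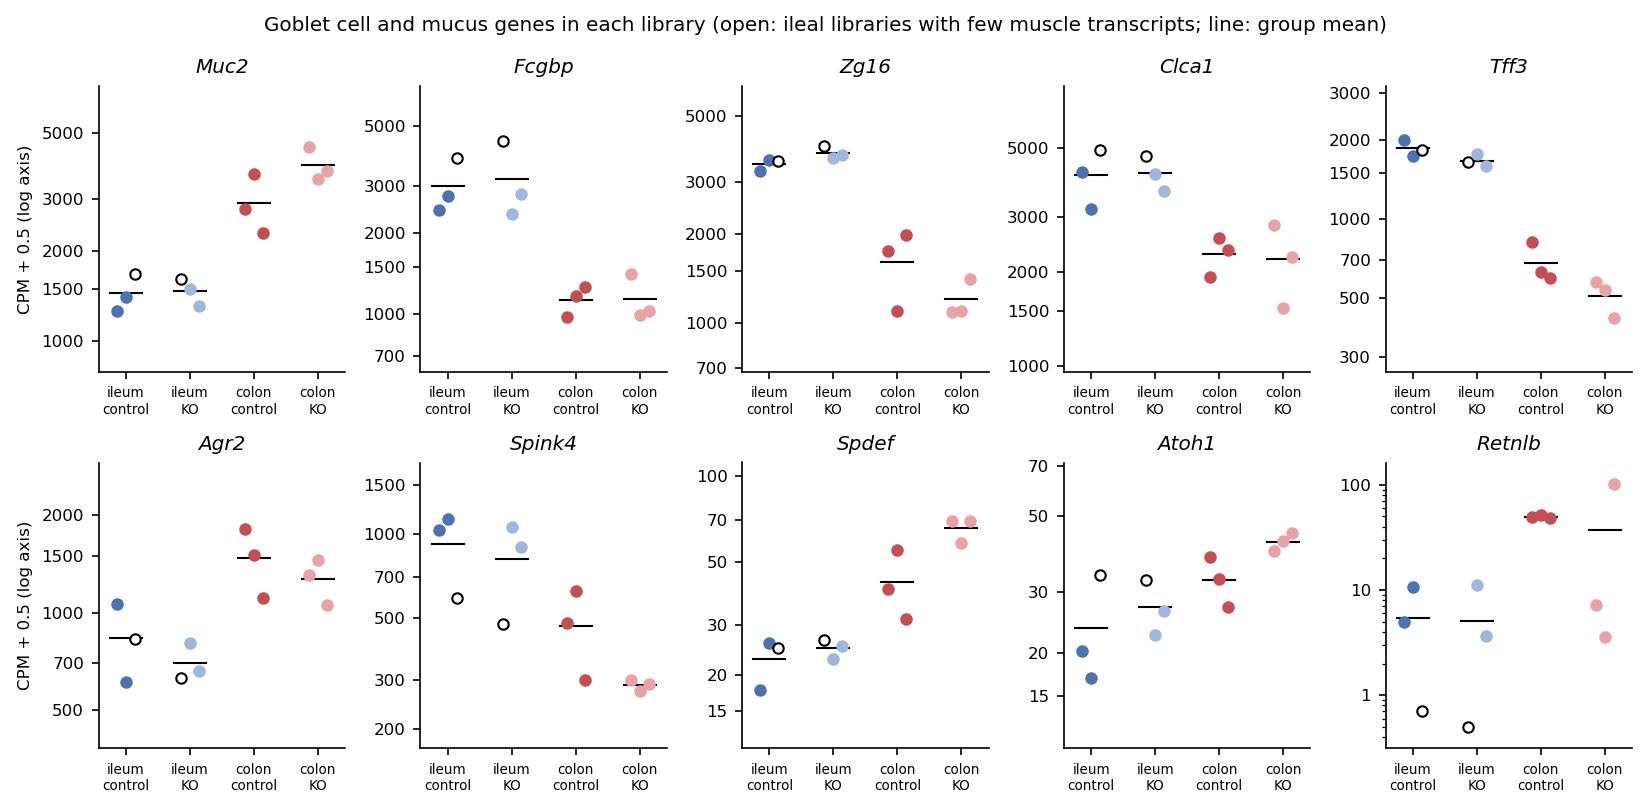
Level of each of the 10 genes in the 12 libraries, as CPM plus 0.5 on log axes that differ between panels; points are libraries (3 per group), lines are group means, and open points are the ileal libraries ileum control 3 and ileum KO 1. The colonic points of Muc2 and Spdef all lie above the ileal ones, those of Fcgbp, Zg16, Clca1 and Tff3 all lie below, and Retnlb scatters most.

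The mucus proteins that accompany Muc2 had the opposite preference. Fcgbp (ENSMUSG00000047730.17, chromosome 7, plus strand), a large protein with von Willebrand factor domains that is bound into the mucin network, was measured at 2435, 2744 and 3817 CPM in ileal controls and at 4417, 2361 and 2796 CPM in ileal KO libraries. In colon it was measured at 977, 1168 and 1258 CPM in controls and at 1411, 994 and 1026 CPM in KO mice. The tissues did not overlap, and the highest ileal values in each genotype were those of the libraries with few muscle transcripts. The level in colon was 0.378 times that in ileum in control mice (log2 fold change -1.40, SE 0.27, edgeR adjusted p = 0.00239) and 0.358 times in KO mice (-1.48, SE 0.27, adjusted p = 0.00172). Without both of those libraries the log2 fold changes were -1.21 and -1.16.

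Zg16 (ENSMUSG00000049350.6, chromosome 7, minus strand) encodes a lectin that binds the wall of Gram-positive bacteria. It was the steadiest of the 10 in ileum, with 3259.8, 3552 and 3522 CPM in controls and 3950.3, 3608 and 3700.2 CPM in KO mice (coefficients of variation 4.67% and 4.72%). The colonic values were 1749.9, 1090.3 and 1982 CPM in controls and 1089.8, 1098 and 1405 CPM in KO mice, all below the ileal ones. Colon had 0.467 times the ileal level in control mice (log2 fold change -1.10, SE 0.22, edgeR adjusted p = 0.00282) and 0.319 times in KO mice (-1.65, SE 0.22, adjusted p = 0.000195).

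Clca1 (ENSMUSG00000028255.6, chromosome 3, minus strand) encodes a secreted metalloprotease that processes the Muc2 network. It was measured at 4172, 3194 and 4923 CPM in ileal controls and at 4719, 4109.9 and 3633 CPM in ileal KO libraries. In colon the values were 1924, 2563 and 2346 CPM in controls and 2822, 1535 and 2240.4 CPM in KO mice. No colonic library reached an ileal one. The log2 fold change was -0.85 in control mice (SE 0.25, edgeR adjusted p = 0.0248) and -0.92 in KO mice (SE 0.25, adjusted p = 0.017).

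Tff3 (ENSMUSG00000024029.4, chromosome 17, minus strand), the trefoil peptide of the intestine, known for its part in epithelial repair, had the smallest adjusted p of the 10 in both comparisons. Its ileal values were 1997, 1736 and 1822 CPM in controls and 1647, 1760.3 and 1587 CPM in KO mice. Its colonic values were 815, 631 and 595 CPM in controls and 577, 534 and 419.9 CPM in KO mice, and the tissues did not overlap. Colon had 0.367 times the ileal level in control mice (log2 fold change -1.44, SE 0.17, edgeR adjusted p = 9.31e-05) and 0.307 times in KO mice (-1.71, SE 0.17, adjusted p = 2.9e-05).

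Spink4 (ENSMUSG00000028415.4, chromosome 4, plus strand) encodes a Kazal-type serine protease inhibitor. It was measured at 1031, 1124 and 589.6 CPM in ileal controls and at 474, 1052 and 897 CPM in ileal KO libraries. The lowest value of each ileal group was again that of the library with few muscle transcripts, here below the others rather than above. In colon the values were 476, 621 and 297 CPM in controls, which overlapped the ileal ones, and 299.6, 272 and 288 CPM in KO mice, which did not. The log2 fold change was -0.98 in control mice (SE 0.34, edgeR adjusted p = 0.0503) and -1.50 in KO mice (SE 0.34, adjusted p = 0.00705). The call in control mice was lost without ileum control 1 or 2, or without colon control 1 or 3. Without ileum control 3 and ileum KO 1 together, the values were -1.23 (adjusted p = 0.00195) and -1.76 (adjusted p = 0.000172).

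Retnlb (ENSMUSG00000022650.6, chromosome 16, plus strand), which encodes the goblet cell protein RELM-beta, an antibacterial protein that bacteria and type 2 cytokines induce, had the widest spread of the 10 in every group but colonic controls. It had 4.46, 10.2 and 0.212 CPM in ileal controls and 0, 10.6 and 3.17 CPM in ileal KO libraries, where the 0 stands for no count and the 0.212 for 5 counts. The libraries ileum control 3 and ileum KO 1 were thus the lowest ileal ones. Colonic controls had 48.6, 50.6 and 48.3 CPM, a coefficient of variation of 2.60%, while the colonic KO libraries had 6.69, 3.06 and 101 CPM, which lie on both sides of the controls. The log2 fold change of colon over ileum was 3.32 in control mice (SE 1.47, edgeR adjusted p = 0.115) and 2.98 in KO mice (SE 1.44, adjusted p = 0.144). Neither was called, although controls did not overlap between tissues. Without ileum control 3 and ileum KO 1 the value in control mice was 2.71 and just passed (adjusted p = 0.097), and that in KO mice was 2.43 and did not (adjusted p = 0.122). Without colon KO 3 the value in KO mice was 0.0782.

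Over the list, 3 of the 10 genes were called higher and 5 lower in colon in control mice, where 35.9% of all genes tested were called, 16.2% as higher and 19.6% as lower. In KO mice 4 were called higher and 5 lower, where 37.1% of all genes were called, 17.1% as higher and 20.0% as lower. The 8 genes called in control mice were called with the same sign in KO mice, a property of 29.3% of all genes. Without the ileal libraries of few muscle transcripts, 5 genes were called higher and 5 lower in control mice and 4 and 5 in KO mice. In that fit 42.0% of all genes were called in control mice (19.9% higher, 22.0% lower) and 43.2% in KO mice (21.5% higher, 21.7% lower). Counted by levels that did not overlap, 8 genes separated the tissues in control mice (40.7% of all genes), 9 in KO mice (50.4%) and 6 over all 12 libraries (28.2%). The median log2 fold change over the 10 was -0.19 in control mice and -0.14 in KO mice, beside 0.02 and 0.01 over all genes.

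**Figure D2:**
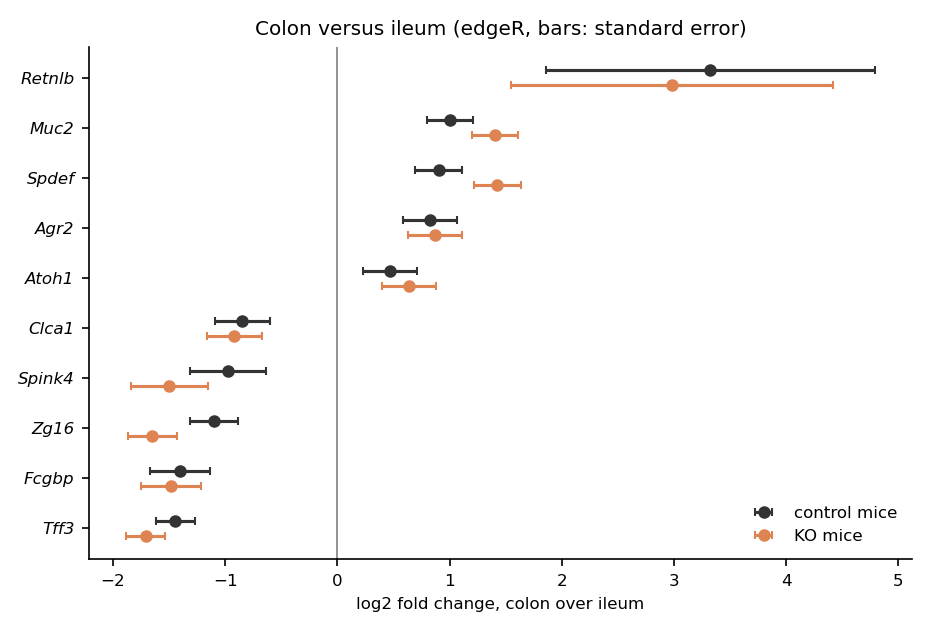
Log2 fold change of colon over ileum for the 10 genes in control mice (black) and KO mice (orange), with bars of 1 standard error from edgeR and n = 3 libraries per group. From Tff3 at -1.44 to Retnlb at 3.32 in control mice, each gene has the same sign in both genotypes on this scale. When set against epithelial genes, Clca1 is at 0.12 and 0.17, and Spink4 in control mice at 0.0352.

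These directions refer to all RNA in the library. In another fit the summed epithelial genes took the place of the library size. The median log2 fold change of all genes was then 0.99 in control mice and 1.13 in KO mice, beside 0.02 and 0.01 in the main fit. On this scale 70.3% of all genes were called higher in colon and 5.38% lower in control mice, and 75.9% and 4.53% in KO mice. The log2 fold changes of Muc2 then were 1.99 and 2.5, those of Spdef 1.90 and 2.54 and those of Agr2 1.81 and 1.99, all called. Tff3 was still called lower in colon, at -0.47 (adjusted p = 0.0387) and -0.59 (adjusted p = 0.0117). Fcgbp was at -0.43 and -0.39 and was called in neither genotype, and Zg16 was at -0.14, not called, in control mice and at -0.53, called, in KO mice. Clca1 changed sign, to 0.12 and 0.17, and so did Spink4 in control mice, to 0.0352 (-0.37 in KO mice), with none of these called. Atoh1 and Retnlb were then called higher in colon in both genotypes, as most genes were. How far the lower sum of the epithelial genes in colon accounts for the lower levels of Fcgbp, Zg16, Clca1 and Spink4 was not tested. Whether that sum reflects the share of epithelium or a lower level of these genes per epithelial cell was not tested either.

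Ratios of genes within a library do not depend on its scaling. Those given here were chosen with the levels above known, so the separation of the first 4 restates those levels and is a description. For each count of Fcgbp there were 0.365 to 0.632 counts of Muc2 in the 6 ileal libraries and 1.83 to 3.61 in the 6 colonic libraries. The ratio of Muc2 to Clca1 was 0.303 to 0.442 in ileum and 0.983 to 2.27 in colon, and that of Muc2 to Zg16 was 0.354 to 0.475 and 1.16 to 4.11. Agr2 over Tff3, a folding enzyme against a secreted peptide, was 0.351 to 0.532 in ileum and 1.86 to 2.73 in colon. None of these 4 ratios overlapped between tissues. Spdef over Muc2, in contrast, was 0.0136 to 0.019 in ileum and 0.0135 to 0.0186 in colon, nearly the same range. The ratio of Fcgbp to Clca1, both higher in ileum, was 0.574 to 0.936 there and 0.456 to 0.648 in colon, and overlapped.

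**Figure D3:**
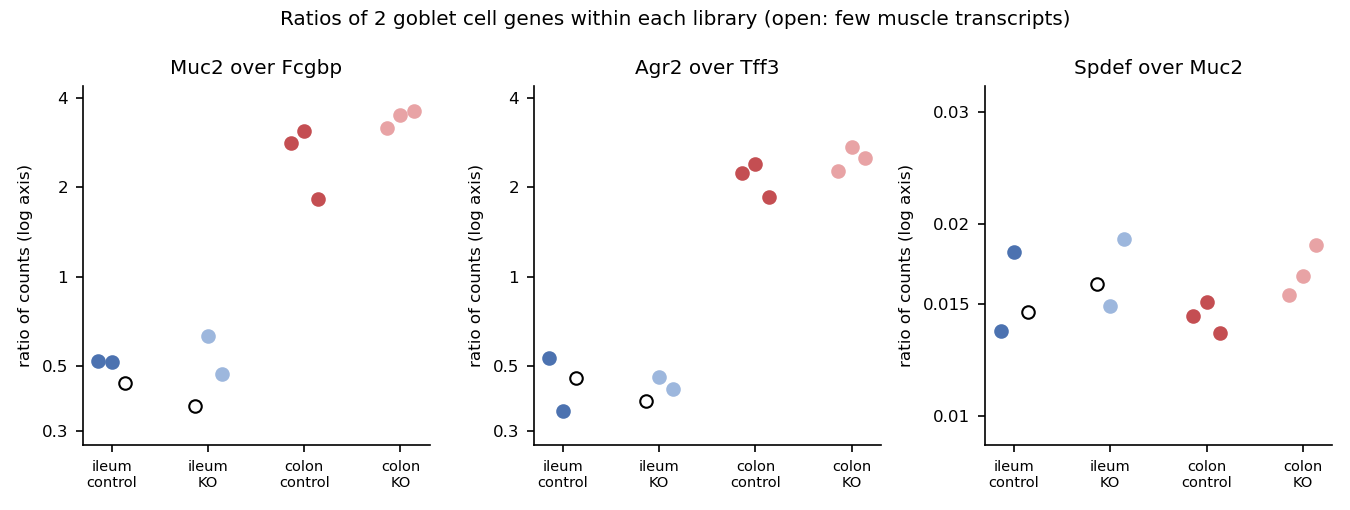
Ratio of the counts of Muc2 to Fcgbp, Agr2 to Tff3 and Spdef to Muc2 in each of the 12 libraries, on log axes; open points are ileum control 3 and ileum KO 1. The first 2 ratios separate ileum from colon without overlap, and the third lies between 0.0135 and 0.019 in both tissues.

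The 10 genes together made up 1.04% to 1.75% of all counts of a library, and the highest shares were those of ileum KO 1 (1.75%) and ileum control 3 (1.75%). Muc2 supplied 8.27% to 9.78% of this sum in ileum and 23.1% to 37.0% in colon. To compare genes with each other, CPM was divided by the merged exon length in kilobases. On this scale Tff3 had the highest mean level of the 10 in all 4 groups, at 3756 in ileal controls and 1380.3 in colonic controls. This order depended on the gene model: with each gene's longest annotated transcript in place of the merged exons, Zg16 was first in all 4 groups, at 4764 in ileal controls and 2223 in colonic controls, and Tff3 was in place 2 in ileum, 3 in colonic controls and 4 in colonic KO mice. With merged exons Zg16 followed Tff3 in every group but colonic KO, where Agr2 did. Atoh1, Spdef and Retnlb held the last 3 places with either model. By merged exons Agr2 went from place 5 in both ileal groups to place 3 in colonic controls and 2 in colonic KO mice. Fcgbp, a long gene with 10497 exonic bases, was in place 6 in ileum and 7 in colon. The place of Muc2 also depended on the gene model: with 7127 merged exonic bases it was in place 7 in ileum and 6 in colon, but with the longest transcript, 2926 bases for Muc2, it was in place 6 in ileum, 5 in colonic controls and 3 in colonic KO mice.

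Likeness of profile was measured as the root mean square difference over the 12 libraries of log2(CPM + 0.5), with each gene centred on its own mean. Nearest to Muc2 were 2510009E07Rik (0.151), Spdef (0.159), Asb4 (0.178), Fxyd3 (0.18) and Snx33 (0.185), and the gene nearest to Spdef was Muc2. The other 8 members were far from Muc2: Atoh1 had place 929 (0.401) and Agr2 place 1180 (0.421), while the remaining 6 had differences of 1.08 (Clca1) to 2.10 (Retnlb). Over the 10 libraries left without ileum control 3 and ileum KO 1, the gene nearest to Muc2 was Tmem42 (0.132), with 2510009E07Rik in place 4 and Spdef in place 9 (0.17), and the gene nearest to Spdef was Repin1 (0.164), so neither of them then had a member as its nearest gene. The points share library depth and the tissue difference, so the distances are a description. Over the 12 libraries no other member had a member as its nearest gene. For Fcgbp it was Epb41l3 (0.135), for Zg16 Trip13 (0.194), for Clca1 Chst8 (0.144), for Tff3 Tango2 (0.165), for Agr2 the mitochondrial pyruvate carrier gene Mpc1 (0.121), for Spink4 the T cell costimulator gene Icos (0.297), for Atoh1 Wdr62 (0.152) and for Retnlb the homeobox gene Hoxa7 (1.13). Over the 10 libraries only Fcgbp and Agr2 of the 10 members kept their nearest gene, while it became Nr1i3 for Zg16, Tnfsf8 for Clca1, Txndc17 for Tff3, Cdc45 for Spink4, Gys1 for Atoh1 and Hoxa13 for Retnlb.

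Between KO and control mice none of the 10 genes was called by edgeR, over both tissues, in ileum or in colon, and none had a genotype effect called as different between tissues. The same 4 comparisons called 0.0% of all genes, and DESeq2 and limma-voom also called none of the 10. At an unadjusted p below 0.05, 2 of the 10 passed over both tissues (3.87% of all genes), 0 in ileum (1.52%), 2 in colon (2.33%) and 0 for the difference between tissues (1.02%). The 2 genes were Tff3 and Spdef both times.

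Over both tissues Tff3 was at a log2 fold change of -0.28 in KO mice (SE 0.12, unadjusted p = 0.0345, adjusted p = 0.998 in edgeR). In an exact two-sided permutation test that exchanged genotypes within each tissue, p was 0.01, where the 400 arrangements allow 0.005 at best. With its level as a ratio to the summed epithelial genes, the permutation p was 0.035. In all, 10 such tests were run, 1 per gene, and they took the libraries as independent. Should ileum and colon come from the same animals, such a test could not go under 0.1. In colon all 3 KO libraries lay below all 3 controls, at -0.41 (SE 0.17, edgeR unadjusted p = 0.0319, adjusted p = 1.0). In ileum the genotypes overlapped, at -0.15 (SE 0.17).

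Over both tissues Spdef was at 0.39 in KO mice (SE 0.16, edgeR unadjusted p = 0.0301, adjusted p = 0.998). Its exact permutation p was 0.05, and 0.12 with its level as a ratio to the summed epithelial genes. In colon all 3 KO libraries were above all 3 controls, at 0.64 (SE 0.21, edgeR unadjusted p = 0.00898, adjusted p = 1.0), and in ileum the value was 0.12 (SE 0.21). The difference between these effects was not called (0.52, SE 0.29, edgeR unadjusted p = 0.0981, adjusted p = 1.0). Atoh1 was the third gene whose genotypes did not overlap in colon, at 0.37 (SE 0.24, unadjusted p = 0.149, adjusted p = 1.0) and an exact permutation p over both tissues of 0.1. In ileum only Zg16 did not overlap between genotypes, at 0.12 (SE 0.21). Levels that did not overlap between genotypes were found for 12.8% of all genes in colon and 3.7% in ileum, beside 3 and 1 of the 10.

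For the remaining genes, KO against control over both tissues gave a log2 fold change of 0.22 for Muc2 (SE 0.15), 0.05 for Fcgbp (SE 0.18), -0.15 for Zg16 (SE 0.16), -0.02 for Clca1 (SE 0.17), -0.24 for Agr2 (SE 0.16), -0.44 for Spink4 (SE 0.24) and -0.25 for Retnlb (SE 0.91). Their exact permutation p ranged from 0.125 (Spink4) to 0.88 (Clca1), and those of Muc2, Agr2, Zg16, Retnlb and Fcgbp were 0.14, 0.23, 0.445, 0.385 and 0.855. The values of Fcgbp, Clca1 and Retnlb changed sign under some of the settings tried. In colon, Muc2 was at 0.42 (SE 0.20), Zg16 at -0.42 (SE 0.21) and Spink4 at -0.70 (SE 0.34), with unadjusted p of 0.0592, 0.0711 and 0.0609 in edgeR. When known changes were simulated for the combined comparison, edgeR found 56% of the 2-fold ones and 89% of the 4-fold ones. That simulation changed many genes at once, which eases the adjusted threshold, so these shares do not hold for a lone changed gene. Slc39a8 itself, at -1.13 over both tissues, was not called by edgeR (adjusted p = 0.382). The edgeR values of the 10 genes over both tissues lay between -0.44 and 0.39, while for Retnlb the mean difference of log2(CPM + 0.5) behind its permutation p was -1.08, over 2-fold, and its value was -1.44 in edgeR without colon KO 3 and -1.65 in limma-voom.

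**Figure D4:**
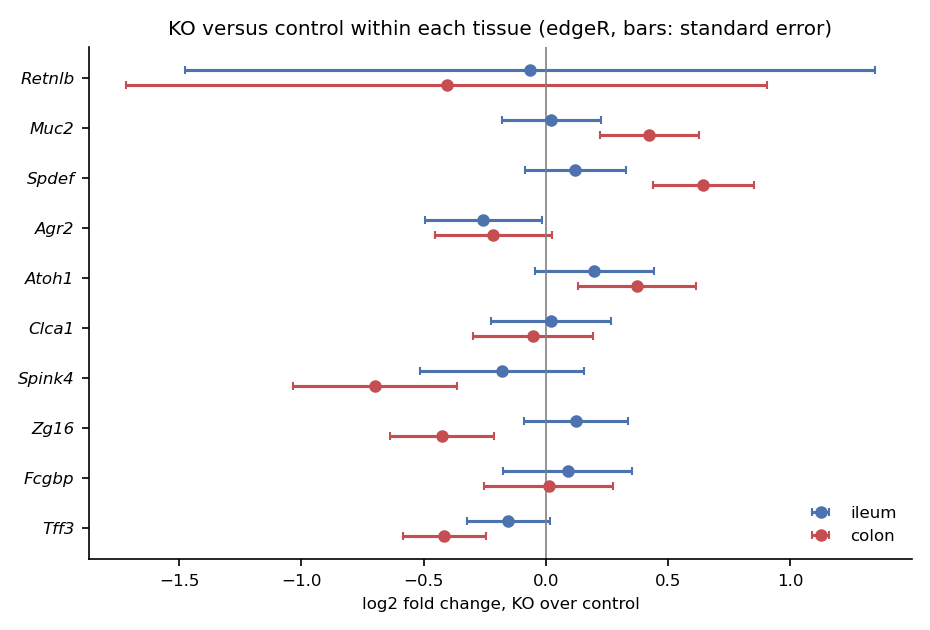
Log2 fold change of KO over control for the 10 genes within ileum (blue) and within colon (red), with bars of 1 standard error from edgeR and n = 3 libraries per group. Of the 20 points none was called; Spdef at 0.64 and Tff3 at -0.41 in colon lie farthest from 0 relative to their standard errors.

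Within ileum, the libraries ileum control 3 and ileum KO 1 differed from the other 4 in several goblet genes, although they belong to different genotypes. Relative to the mean of those 4 libraries, Fcgbp was 1.48 and 1.71, Atoh1 1.58 and 1.52, Clca1 1.30 and 1.25, and Muc2 1.22 and 1.18. Spink4 was 0.574 and 0.462. Retnlb was 0.0299 and 0. These 6 genes did not overlap between the 2 libraries and the other 4, a property of 50.4% of all genes, while Zg16, Tff3, Agr2 and Spdef overlapped. The same libraries had more of the 5 stem cell genes (867 and 631 CPM in sum, against 199 to 256), of the 5 proliferation genes (686 and 500.1, against 279 to 364), of the 7 enteroendocrine genes (287 and 245, against 129 to 142) and of the 6 tuft cell genes (41.3 and 53.4, against 21.0 to 27.1). Besides the smooth muscle genes, they had less of the 6 plasma cell genes (542 and 556, against 901 to 2893) and the 5 macrophage genes (66.8 and 62.9, against 109 to 140.4). The sum of the 8 Paneth cell genes was also lower (18052 and 15798, against 19634 to 44726), but its genes did not move together. Reg3g had 40997 and 45998 counts in these libraries, against 273797 to 657194 in the other 4. Lyz1 went the other way, with 149673 and 79540 counts against 27635 to 62919, and so did Mmp7, Itln1 and Ang4. Defa17, Defa21 and Defa24 overlapped in these counts, which are not scaled to depth. The depth of ileum KO 1 was 16749138, the lowest, and that of ileum KO 2 was 27903083. Relative to library size, Defa21 and Defa24 were also higher in ileum control 3 and ileum KO 1 than in the other 4, while Defa17 overlapped. The part of these cell types in the levels of the 6 goblet genes was not tested.

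**Figure D5:**
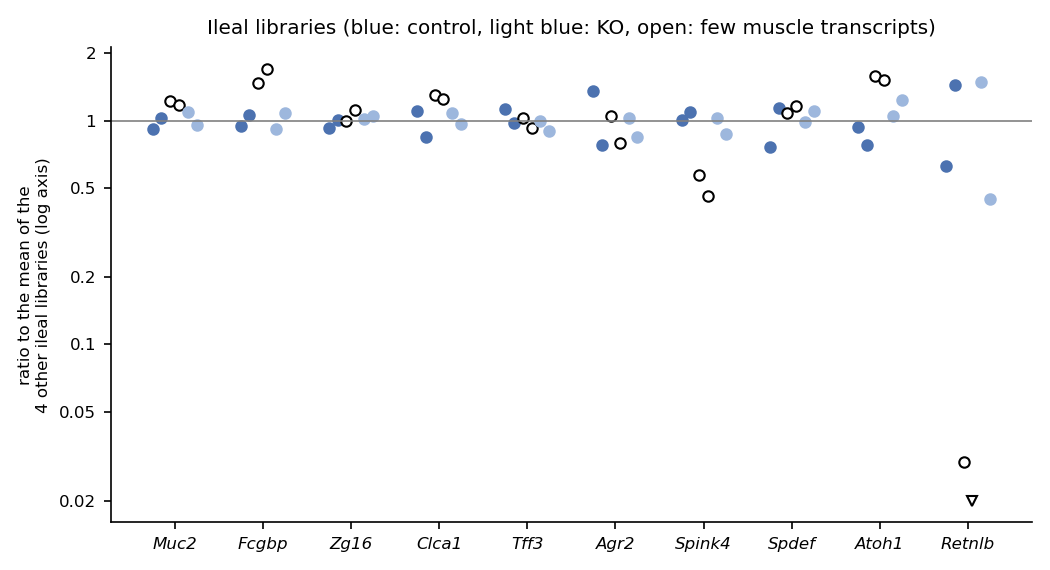
Level of each gene in the 6 ileal libraries as a ratio to its mean in the 4 libraries other than ileum control 3 and ileum KO 1 (open points), on a log axis; the triangle stands for the 0 of Retnlb in ileum KO 1. The open points lie above the rest for Muc2, Fcgbp, Clca1 and Atoh1 and below them for Spink4 and Retnlb.

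Other genes of the goblet cell programme are given as counts of lists chosen for their known roles. Of all genes tested, 16.2% were called higher and 19.6% lower in colon in control mice, and 17.1% and 20.0% in KO mice. Without ileum control 3 and ileum KO 1 these shares were 19.9% and 22.0% in control mice, and 21.5% and 21.7% in KO mice. Of 15 further goblet cell products that were tested, 9 were called higher and 2 lower in colon in control mice, and 8 and 2 in KO mice. Without ileum control 3 and ileum KO 1, 9 and 1 were called in control mice and 9 and 2 in KO mice. Their median log2 fold change was 0.72 in control mice and 0.96 in KO mice. Wfdc2, a secreted protein with a whey acidic protein domain, was at 0.0666 to 1.19 CPM in ileum and 11.9 to 16.6 CPM in colon (log2 fold change 4.22 in control mice, edgeR adjusted p = 0.000149). Klk1, a kallikrein, was at 175 to 323 and 993 to 1424 CPM (2.36, adjusted p = 3.55e-05), and Rep15, a Rab15 effector, at 15.8 to 30.5 and 66.0 to 74.4 CPM (1.59, adjusted p = 0.000185). Itln1, a lectin that binds microbial sugars and is also made by Paneth cells, was the strongest in the other direction, at 625 to 2311 CPM in ileum and 0.777 to 3.82 CPM in colon (-9.26, adjusted p = 1.24e-05). Capn8, a calpain, was called lower in colon as well (-0.52, adjusted p = 0.0658).

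Of 18 genes of mucin O-glycosylation, 11 were called higher and 3 lower in colon in control mice, and 9 and 2 in KO mice, with medians of 0.62 and 0.69. The counts without ileum control 3 and ileum KO 1 were 12 and 4 in control mice and 13 and 3 in KO mice. Slc35a1, the carrier of CMP-sialic acid into the Golgi, was at 22.3 to 29.0 CPM in ileum and 95.7 to 123 CPM in colon (2.11, edgeR adjusted p = 6.54e-07). Gcnt3, which makes branched core structures, was higher at 1.51 (adjusted p = 0.000635). B3galt5, a galactosyltransferase, was at 0.935 to 94.3 CPM in ileum and 138 to 396 CPM in colon (2.90, adjusted p = 0.0982). The sialyltransferase gene St3gal4 (-2.66, adjusted p = 9.9e-05) and the branching enzyme gene Gcnt4 (-1.66, adjusted p = 0.00122) were lower in colon.

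Of 8 other mucins tested, 2 were called higher and 2 lower in colon in control mice, and 3 and 2 in KO mice. The call of Muc1 in KO mice is among these, a gene that reached the filter's minimum of 0.502 CPM in 0 ileal and 4 colonic libraries. With ileum control 3 and ileum KO 1 left out, the counts were 2 and 3 in control mice and 2 and 2 in KO mice. Muc3a, Muc4 and Muc13 are anchored in the cell membrane. Muc3a (1.44, edgeR adjusted p = 0.000117) and Muc4 (0.92, adjusted p = 0.0288) were higher in colon, and Muc13 (-1.26, adjusted p = 0.0276) was lower, at 1696 to 5162 CPM in ileum and 1384 to 1757 CPM in colon. Reads of Muc3 and Muc3a, which are alike in sequence, may have been divided between them in an unknown way. The gel-forming stomach mucin Muc5ac had no count in any library.

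Of 15 regulators of the secretory lineages, 2 were called higher and 4 lower in colon in control mice, and 4 and 3 in KO mice. Without the ileal libraries of few muscle transcripts, 7 were called higher and 4 lower in each genotype. Hes1, the Notch target that represses Atoh1 (1.09, edgeR adjusted p = 0.000329), and Foxa1, a forkhead factor (1.0, adjusted p = 0.000329), were higher in colon. The Notch ligand genes Dll4 (-2.21, adjusted p = 0.000179) and Dll1 (-1.46, adjusted p = 0.000724) and Bhlha15, a factor of secretory cell maturation (-3.81, adjusted p = 0.000541), were lower.

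Of 13 genes of mucus release and unfolding, 5 were called higher and 3 lower in colon in both genotypes. Without ileum control 3 and ileum KO 1 the counts were 7 and 4 in control mice and 6 and 4 in KO mice. The genes of the meprin subunits, of which the beta form detaches Muc2 in the small intestine, were lower in colon, Mep1b at -3.47 (edgeR adjusted p = 3.84e-05) and Mep1a at -1.40 (adjusted p = 0.00018). The bicarbonate cotransporter gene Slc4a4 was also lower (-0.66, adjusted p = 0.01). Tgm3, a transglutaminase that cross-links Muc2, was at 0.0425 to 0.189 CPM in ileum and 1.09 to 4.48 CPM in colon. Best2, an anion channel of colonic goblet cells, was at 0 to 0.552 and 1.25 to 4.52 CPM, and the proton pump gene Atp12a at 0 to 0.0474 and 0.922 to 3.31 CPM. These 3 genes, which are among the 5 called higher, passed the filter through their colonic libraries and not their ileal ones, where they had at most 4, 13 and 1 counts, so a higher level in colon was a condition of their being tested, and their calls support nothing about the list.

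Of 6 tested genes for responses to type 2 cytokines and IL-22, which act on goblet cells, 3 were called lower in colon in both genotypes and none higher. They were the receptor chain genes Il4ra (-2.12, edgeR adjusted p = 0.000803), Il22ra1 (-1.39, adjusted p = 0.000629) and Il13ra1 (-0.83, adjusted p = 0.0148). When set against the epithelial genes, 3 of the 6 were called higher and 2 lower in control mice, and 3 and 1 in KO mice. On that scale 70.3% of all genes were called higher in control mice and 75.9% in KO mice.

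Of 10 tested paralogs of the members, 1 was called higher and 6 lower in colon in control mice, and 0 and 6 in KO mice. In KO mice these counts were 1 and 5 without ileum control 3 and ileum KO 1. The chloride channel accessory genes next of kin to Clca1 were lower in colon, Clca4b at -8.65 (edgeR adjusted p = 3.9e-05), Clca4a at -3.56 (adjusted p = 0.000132), Clca3b at -2.99, Clca3a2 at -2.35 and Clca3a1 at -1.23. Spink1, a trypsin inhibitor related to Spink4, was at -3.37 (adjusted p = 0.000214). Retnla, related to Retnlb, was higher in colon in control mice (2.88, adjusted p = 0.0575) and not called in KO mice (2.15). The paralogs Agr3, Retn and Clca2 were at 2.86 CPM or less in every library and were not called. Reads of the Clca genes, and of Clca4a and Clca4b above all, may have been divided between similar copies. When the epithelial genes took the place of the library size, 11 of 15 regulators, 9 of 13 genes of release and unfolding and 5 of 8 other mucins were called higher in colon in control mice, beside 70.3% of all genes on that scale. Of the 85 tested genes of these 7 lists, edgeR, DESeq2 and limma-voom called 0 between genotypes over both tissues. An unadjusted p below 0.05 in edgeR was found for 9 of the 85, beside 3.87% of all genes.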

How the data were processed

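RNA-seq of ileal and colonic mucosa was analysed from the expected counts per gene that the authors deposited, estimates that are not normalized (93.7% were whole). The study names STAR, the mm10 build, FeatureCounts and the use of reads with 1 mapping position only. Which tool made estimates that need not be whole, and how it split reads between alike genes, was not stated by any source read for this work. The 92 spike-in lines held no counts and were left out. Of 53715 gene identifiers, 53620 matched a symbol in GENCODE M21 without regard to version.

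Groups came from the labels. Expected counts were rounded, filtered by filterByExpr with the 4 groups (16558 genes kept), scaled by TMM and fitted with edgeR 4.0.16 (glmQLFit, glmQLFTest) in R 4.3.3 on all 12 libraries. The genotype effect over both tissues had tissue as an additive term, and all other effects came from a model of the 4 groups. P-values were adjusted over all genes by the Benjamini-Hochberg method with the study's threshold of 0.1. CPM used TMM-scaled library sizes, and permutation tests used log2(CPM + 0.5). P-values set a difference between groups against the spread between these libraries, which may not all come from separate animals. Should ileum and colon come from the same animals, an exact test of 3 against 3 could not go under 0.1. DESeq2 1.42.0, limma-voom (limma 3.58.1), other scalings, filters, unrounded values, thresholds, the replicate number as a block and each library left out were alternatives. The steps were tested on simulated data: for colon against ileum in control mice (16158 genes) edgeR found 27% of simulated 2-fold and 69% of 4-fold changes with 11.9% false calls, and for genotype over both tissues (16234 genes) 56% and 89% with 9.38% false calls. Each simulation changed many genes at once. The counts of the other lists under other settings were added after seeing the data. Same-numbered libraries were compared to see whether the numbers pair them.

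The 10 genes were given by name, and they and all lists were chosen with earlier results of these data known. Named beside them were Slc39a8, all tested paralogs, the genes nearest in profile and, of each list, up to 3 genes with the largest change in each direction among those called with the same sign in both genotypes. Other list genes (Muc3, Muc5ac) were named after their values were seen. Promoter windows are from RefSeq (GRCm38.p6). Plots came from matplotlib 3.10.9 (Python 3.11.15).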

Additional observations from a re-analysis of the deposited data

How the results depend on the processing

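The directions of colon against ileum were kept by all 10 genes under every alternative except the scaling to epithelial genes, under which Clca1 was at 0.12 in control mice and 0.17 in KO mice and Spink4 at 0.0352 in control mice. With an adjusted p below 0.01, 5 of the 10 genes were called in control mice in place of 8. Clca1 lost its calls when library size alone was used for scaling (-0.63 with adjusted p = 0.114 in control mice, -0.65 with adjusted p = 0.101 in KO mice). Atoh1 was called in control mice under 4 alternatives and Retnlb under 9. For KO against control over both tissues, 7 of the 10 genes kept their sign throughout. With 1 library left out, Fcgbp ranged from -0.0896 to 0.15, Clca1 from -0.12 to 0.0793 and Retnlb from -1.44 to 0.14, and the ileal value of Spdef ranged from -0.0357 to 0.225. Clca1 was at 0.0557 with library size alone, at 0.000752 with no filter but 1 count, and at 0.00399 without ileum control 3 and ileum KO 1. As a ratio to the epithelial genes, the permutation value of Fcgbp was -0.0108. The causes of these moves were not tested. Between ileal and colonic controls, correlations of deviations were -0.06 to 0.17 for same-numbered libraries and -0.18 to 0.13 for others. Between ileal and colonic KO libraries they were 0.08 to 0.30 for same-numbered libraries and -0.24 to 0.05 for others, so there every same-numbered pair lay above every other pair. This is a hint of pairing in KO mice from the data and not from the design, and the numbers were not taken to pair the libraries. Libraries of different genotypes cannot share a mouse. Between ileal KO and colonic control libraries the correlations were 0.04 to 0.14 for the same number and -0.14 to 0.11 for others. Between ileal control and colonic KO libraries they were -0.21 to -0.12 and -0.18 to 0.27. With the replicate number as a block, 8 of the 10 genes were called in control mice and 9 in KO mice, as without it, and none between genotypes. That block joined control and KO libraries of the same number, so it did not stand for a mouse. A limma-voom fit took same-numbered libraries of a genotype as from the same mouse. It gave correlations of 0.114 (4-group model) and 0.147 (additive model) and called none of the 10 between genotypes in ileum or in colon. Retnlb rested on few counts in ileum, 0 to 270.0 per library. Ileum control 3 had 5 at a depth of 23198023 expected counts, and ileum control 2 had 184 at 20913415.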
